A study of Rattus norvegicus with 5 samples.

Results

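The genes described here code for the subunits of voltage-gated sodium and calcium channels. They were chosen by name alone: a gene was a member if its symbol began with Scn and a digit, or with Cacna, Cacnb or Cacng, which gave 40 of the 32883 genes in the files. By role these were 10 sodium channel alpha subunits, 4 sodium channel beta subunits, 4 L-type, 3 P/Q-, N- and R-type and 3 T-type calcium channel pore genes, 4 alpha2delta subunits, 4 calcium channel beta subunits and 8 gamma subunits. Nuclear RNA was read with 10x Genomics 3' v3.1 chemistry from punches of the ventral tegmental area (VTA), a midbrain region with dopamine, GABA and glutamate neurons, in 5 adult male Sprague-Dawley rats. Each rat gave 1 library, and both sides of its VTA were pooled. All 5 belonged to 1 condition, named saline in the labels and drug-naïve by the study, so the comparisons below are between classes of nuclei within the same rats and not between treatments.

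Voltage-gated sodium channels open on depolarization and carry the upstroke of the action potential, and their beta subunits set where the channels sit and how fast they close. Voltage-gated calcium channels turn depolarization into calcium entry: T-type and some L-type channels work near the resting potential and shape pacemaking and bursts, while P/Q-, N- and R-type channels serve transmitter release and dendritic calcium. The alpha2delta and beta subunits bring the calcium channel pore to the membrane, and most brain gamma subunits are better known as TARPs, which escort AMPA-type glutamate receptors. Dopamine neurons of the midbrain fire spontaneously and are known for the calcium entry that accompanies each spike.

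The libraries held 10193355 to 88576210 UMIs (unique molecular identifiers, each 1 captured RNA molecule), and 22084 barcodes passed the filters of at least 1000 UMIs, 201 to 4999 genes and under 5% mitochondrial UMIs. After clusters that resembled free RNA (4066 barcodes, 59.7% of those of rat 1 and 0% of those of rat 3), clusters of mixed markers and doublets were left out, 16755 nuclei remained, 692 to 6280 per rat. Each cluster that resembled free RNA scored highest on neuron markers. The largest, with 1507 barcodes (1304 from rat 2), had Slc6a3, Th and Slc18a2 among its leading genes. The limit for leaving them out was set after the clusters had been seen. No comparison among neuron classes was run with them kept. The largest class was oligodendrocytes (8631), followed by neurons (5503), 935 precursors of oligodendrocytes (OPCs), 894 astrocytes, 401 microglia and 391 nuclei of vascular cells. When the neurons were clustered again, 2 sub-clusters with 360 nuclei were scored as mixed, with neuron markers beside those of oligodendrocytes or astrocytes. They were kept in the class of all neurons, where they made up 1.82 to 13.7% of a library, the highest share being in rat 3, and entered none of the 3 neuron classes named next. Another 2, of 107 and 51 nuclei before doublets were left out, were scored as neurons but had the oligodendrocyte marker Mog among their leading genes. These entered no named class either, but stayed in all neurons, also in the fit without the mixed sub-clusters. Neuron classes were named by sub-cluster: 930 nuclei were in dopamine-like and 2001 in GABA-like sub-clusters. A further 778 were in sub-clusters named by Slc17a6, the vesicular glutamate transporter gene that marks glutamate neurons. This last class rested on 1 or 2 of 6 glutamate markers and is called Slc17a6 neurons. Another 1794 neurons, 809 of the 1885 in rat 3, entered none of these classes but stayed in all neurons. Among them were sub-clusters with Tph2 or Slc17a7 among their leading genes. Summed marker levels (UMIs per 10000) followed the names: the 8 dopamine markers came to 32.1 in dopamine neurons (29.0 to 38.1 over libraries), 1.70 in GABA and 5.22 in Slc17a6 neurons, the 3 GABA markers to 7.87 in GABA neurons and at most 0.647 in the others, and the 6 glutamate markers to 2.50 in Slc17a6 neurons and at most 0.327 in the others. Not every sub-cluster was as distinct. An Slc17a6 sub-cluster had Th at 3.25 and Ddc at 7.97, beside 4.38 and 10.2 in a dopamine sub-cluster with Slc17a6 at 0.695. A GABA sub-cluster had Gad1 at 0.592 and Gad2 at 1.27, below 1.42 and 2.56 in a sub-cluster that entered no named class. The 8 oligodendrocyte markers came to 12.2, 18.6 and 12.8 in dopamine, GABA and Slc17a6 neurons, against 256 in oligodendrocytes, and their part in the results was not tested. Rat 1 gave 4 dopamine nuclei, too few for a sum. Its GABA and Slc17a6 sums rest on 21 and 29 nuclei, against 280 to 802 and 88 to 274 in other rats. No nuclei of rat 3 were named astrocytes or microglia. A sub-cluster of 51 nuclei, all of rat 3, scored 0.713 on astrocyte and 0.358 on oligodendrocyte markers and was left out as mixed. Typed singly by their own markers, 29 nuclei of rat 3 were astrocytes. Median UMIs per nucleus were 6260.5 in dopamine, 5399 in GABA and 5894 in Slc17a6 neurons, and 1986 to 3613 in the glial classes. Pairs of libraries shared 0 to 16 barcodes. Over all neurons, 24 of the 30 members tested were lowest in rat 3, the shallowest library and mostly neurons, and 19 were highest in rat 1. The same count over all genes was not made, so these counts do not single out the members.

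A level is given as UMIs per 10000 UMIs of the class in a library. Library values run in the order of rats 1 to 5, of rats 2 to 5 for dopamine neurons, and of rats 1, 2, 4 and 5 for astrocytes and microglia. Summed over the 40 genes, the level in all neurons was 77.8 ± 13.8 (SD, n = 5), and it was 36.8 ± 7.03 in OPCs, 30.3 ± 5.49 in astrocytes (n = 4), 4.73 ± 0.526 in oligodendrocytes and 5.13 ± 1.46 in microglia (n = 4). Within neurons it was 81.9 ± 14. in the dopamine class (n = 4), 70.1 ± 10. in the GABA class and 89.1 ± 15.5 in the Slc17a6 class. The ranges of the 3 neuron classes overlapped, and those of oligodendrocytes and microglia lay below every library of OPCs and astrocytes. Longer genes tended to have higher levels: over the 40 genes, the level in neurons and the RefSeq gene span had a Spearman rho of 0.73, given as a description. The part of intronic reads in this was not tested. Per 100 kb of span, levels in neurons were high for Scn3b (6.47), Scn1a (5.20), Scn2a (4.40) and Cacng8 (4.26), and Cacna2d3, the highest by raw level, had 0.986.

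**Figure D1:**
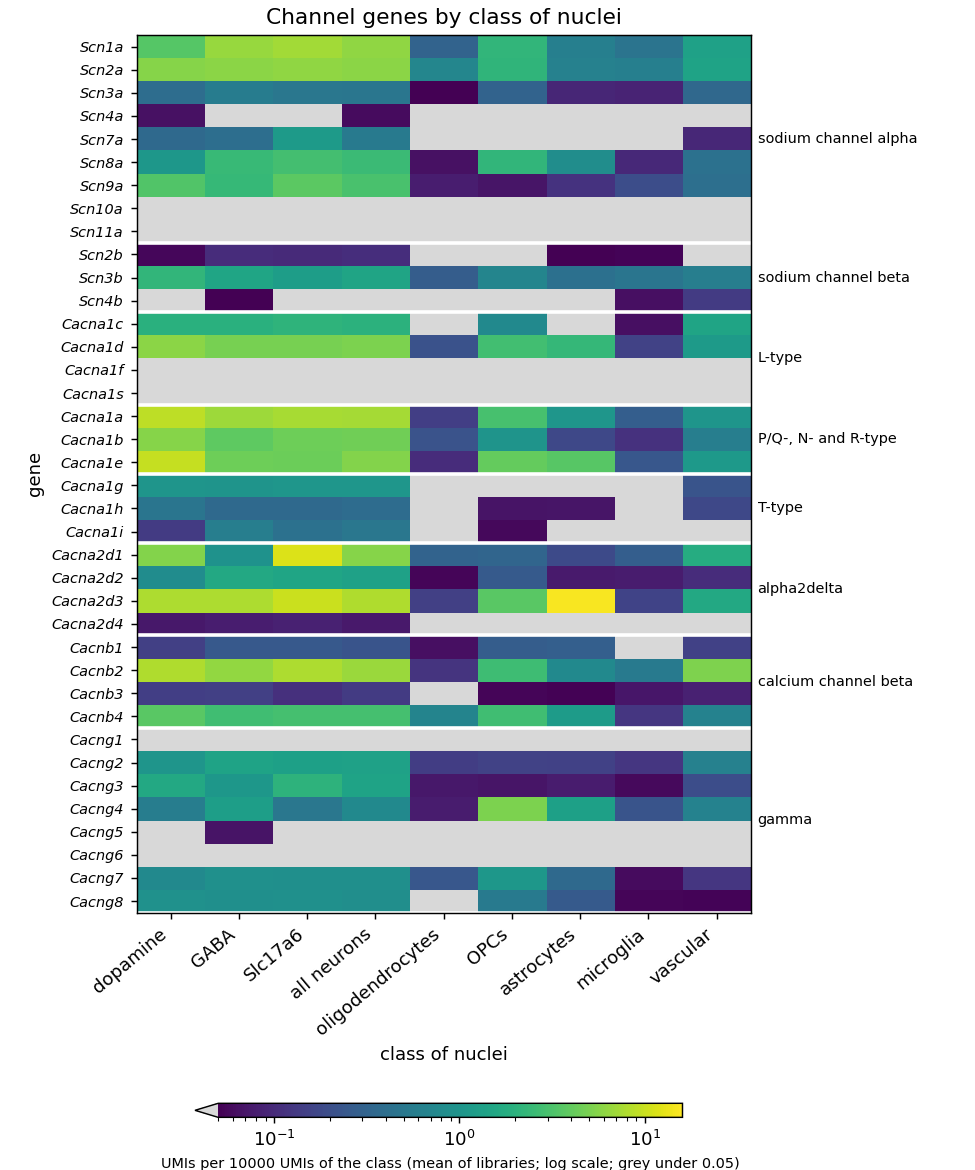
Mean level of 38 of the 40 channel genes (rows, grouped by role) in 9 classes of nuclei (columns), in UMIs per 10000 UMIs on a log colour scale, with levels under 0.05 in grey. The neuron columns are bright in most rows, oligodendrocytes and microglia are dark, and OPCs and astrocytes lie between, with Cacng4 brightest in OPCs and Cacna2d3 in astrocytes.

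The data held 8 genes that were too low to be tested among neuron classes: the sensory neuron sodium channels Scn10a and Scn11a, Scn4b, the retinal and skeletal muscle L-type genes Cacna1f and Cacna1s, and Cacng1, Cacng5 and Cacng6. In all neurons their mean levels ran from 0.00188 for Scn11a to 0.0331 for Scn4b. Free RNA held more Scn4b than neurons did, with a mean of 0.217 (0.0938 to 0.499 over libraries). The muscle sodium channel Scn4a and the alpha2delta gene Cacna2d4 passed that filter in neurons, at 0.0585 ± 0.036 and 0.0739 ± 0.0175 (SD, n = 5), but were left out of the comparison with glia. In oligodendrocytes they stood at 0.0329 ± 0.023 and 0.0308 ± 0.0184.

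The first comparison asked which channel genes set dopamine neurons apart from GABA neurons of the same rats. Dopamine neurons had more RNA of the R-type pore gene Cacna1e and of the alpha2delta gene Cacna2d1, and less of the sodium channel genes Scn1a and Scn8a, the T-type gene Cacna1i and the TARP gene Cacng4. Of 32 members tested, 18 were called by the edgeR quasi-likelihood test at an adjusted p under 0.05, 11 higher and 7 lower in dopamine neurons, where 24.1% of all genes tested were called (11.8% higher and 12.3% lower). Differences are given as log2 fold changes ± SE of the first class named against the second. The median log2 fold change was 0.13 over the members and -0.02 over all genes. Against Slc17a6 neurons, 14 of 32 were called, 7 in each direction, beside 16.5% of all genes (8.25% higher and 8.28% lower), with a median of 0.02 against -0.01. Both comparisons use the same dopamine sums, so their values are given side by side and are not independent. With 4 rats an exact sign-flip test over rats cannot go below p = 0.125, and with 5 not below 0.0625, so calls rest on the fit across all genes with the rat as a block. The test was repeated without the block, with nuclei classed singly on their markers (own markers), with thinning to 1000 UMIs per nucleus, with free RNA subtracted, with a minimum of 2000 UMIs, by DESeq2, without each rat in turn and, for neurons against glia, with clusters that resembled free RNA kept as neurons or without the 2 mixed sub-clusters. A call is said below to be lost where its adjusted p then reached 0.05, with the log2 fold change of that fit in brackets. Of the genes described here, Scn1a, Scn8a, Cacna1e, Cacna1i, Cacna2d1 and Cacng4 kept their call against GABA neurons in every fit in which they were tested, and Scn1a, Scn8a, Scn3b, Cacna1e and Cacna2d1 kept theirs against Slc17a6 neurons.

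Among sodium channel alpha subunits, Scn1a codes for Nav1.1, the channel of fast-spiking neurons. Its level was 3.47, 3.1, 3.92 and 3.35 in dopamine neurons, 6.51, 6.98, 6.61, 6.53 and 6.06 in GABA neurons and 6.35, 7.45, 6.94, 7.42 and 7.44 in Slc17a6 neurons. Every dopamine library lay below every library of the other classes. The difference was log2 -0.92 ± 0.09 (adjusted p = 2.47e-07) against GABA neurons and log2 -1.003 ± 0.09 (adjusted p = 1.84e-07) against Slc17a6 neurons, and both were lower in 4 of 4 rats. Scn8a, which codes for Nav1.6, the main channel of the axon initial segment and nodes, stood at 1.08, 0.79, 1.39 and 1.01 in dopamine, 2.1, 2.87, 1.82, 2.79 and 2.6 in GABA and 3.01, 2.81, 2.01, 3.29 and 3.16 in Slc17a6 neurons. Again no dopamine library reached the others, with log2 -1.22 ± 0.10 (adjusted p = 4.51e-08) against GABA and log2 -1.37 ± 0.10 (adjusted p = 3.35e-08) against Slc17a6 neurons. Scn2a, the gene of Nav1.2, the other main axonal and dendritic channel of the adult brain, was called in neither comparison: its level was 5.56, 4.89, 6.27 and 5.88 in dopamine, 5.33, 5.97, 5.44, 6.36 and 6.1 in GABA and 6.96, 5.68, 5.51, 6.35 and 6.52 in Slc17a6 neurons. The ranges overlapped, and the fitted differences were -0.04 ± 0.09 and -0.06 ± 0.09 (log2 ± SE).

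The promoter of Scn8a is shown because this gene had the largest fall among the alpha subunits of dopamine neurons against GABA neurons. Like the other promoters printed here, it covers the 250 bases before 1 listed RefSeq start in GRCr8, here chr7:133860977-133861226 on the plus strand, 5′ to 3′. That start lies 326 bases inside the RefSeq span of the gene, so the window overlaps the span. Capitals mark GC boxes (CCGCCCC on either strand).
Scn8a: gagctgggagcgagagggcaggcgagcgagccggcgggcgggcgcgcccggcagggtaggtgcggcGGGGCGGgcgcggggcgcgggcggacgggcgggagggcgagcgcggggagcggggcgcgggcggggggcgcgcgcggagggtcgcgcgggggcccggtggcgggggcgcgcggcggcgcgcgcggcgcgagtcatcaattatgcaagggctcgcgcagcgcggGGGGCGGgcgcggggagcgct
It held 2 GC boxes and was 86% G or C. RefSeq promoters were matched for 27 of the 40 members (1 start each, from 0 to 168985 bases inside the span of its gene, with a median of 138 and more than 1000 for 5 members), and 9 held a GC box, beside 18.8% of 33469 promoters of that length. Their median G or C content was 62.8%, beside 51.2% over all promoters.

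The remaining alpha subunits were less abundant or less uniform. Scn9a, the gene of Nav1.7, known from pain-sensing neurons, measured 2.96, 2.21, 4.04 and 4.09 in dopamine, 1.61, 1.43, 1.2, 2.79 and 4.89 in GABA and 2.48, 2.49, 2.11, 4.88 and 6.67 in Slc17a6 neurons. Its spread between rats was wide, with rats 4 and 5 above rats 1 to 3 in each class. It was higher in dopamine than in GABA neurons (log2 0.55 ± 0.15, adjusted p = 0.0117), in 3 of 4 rats. That call was lost without the block (0.51), with own markers (0.35) and without rat 2 or 3 (0.34 and 0.44). It was lower in GABA than in Slc17a6 neurons in 5 of 5 rats (log2 -0.64 ± 0.14, adjusted p = 0.00627), a call lost without the block (-0.60) and with own markers (-0.56). Scn7a codes for Nax, a sodium-sensing relative that does not open with voltage, and it was highest in Slc17a6 neurons. There it read 1.26, 0.964, 0.981, 1.09 and 1.49, against 0.286, 0.164, 0.569 and 0.415 in dopamine and 0.294, 0.353, 0.182, 0.651 and 0.509 in GABA neurons. Slc17a6 neurons were above every library of the other classes, with log2 -1.56 ± 0.19 (adjusted p = 9.96e-06) for dopamine and log2 -1.34 ± 0.17 (adjusted p = 2.59e-05) for GABA neurons against them. The dopamine call was lost with own markers (-0.78), and the GABA call held in every fit in which the gene was tested. Scn3a, prominent in the fetal brain, had means of 0.39 ± 0.106, 0.563 ± 0.163 and 0.489 ± 0.194 in the 3 classes and was called in none of the comparisons among them.

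Of the sodium channel beta subunits, Scn3b, which binds its alpha subunit without a covalent bond, was higher in dopamine neurons, with 1.86, 2.88, 1.98 and 2.25 in dopamine, 1.22, 1.23, 1.73, 1.75 and 1.56 in GABA and 1.22, 1.23, 1.38, 1.24 and 1.15 in Slc17a6 neurons. Dopamine neurons were higher in every rat and did not overlap with the others, by log2 0.53 ± 0.11 (adjusted p = 0.00118) and log2 0.85 ± 0.12 (adjusted p = 3.82e-05). The first call was lost without the block (0.62) and with own markers (0.41). Scn2b was low, at 0.0555 ± 0.0394, 0.104 ± 0.0594 and 0.10 ± 0.0619, and was not called.

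**Figure D2:**
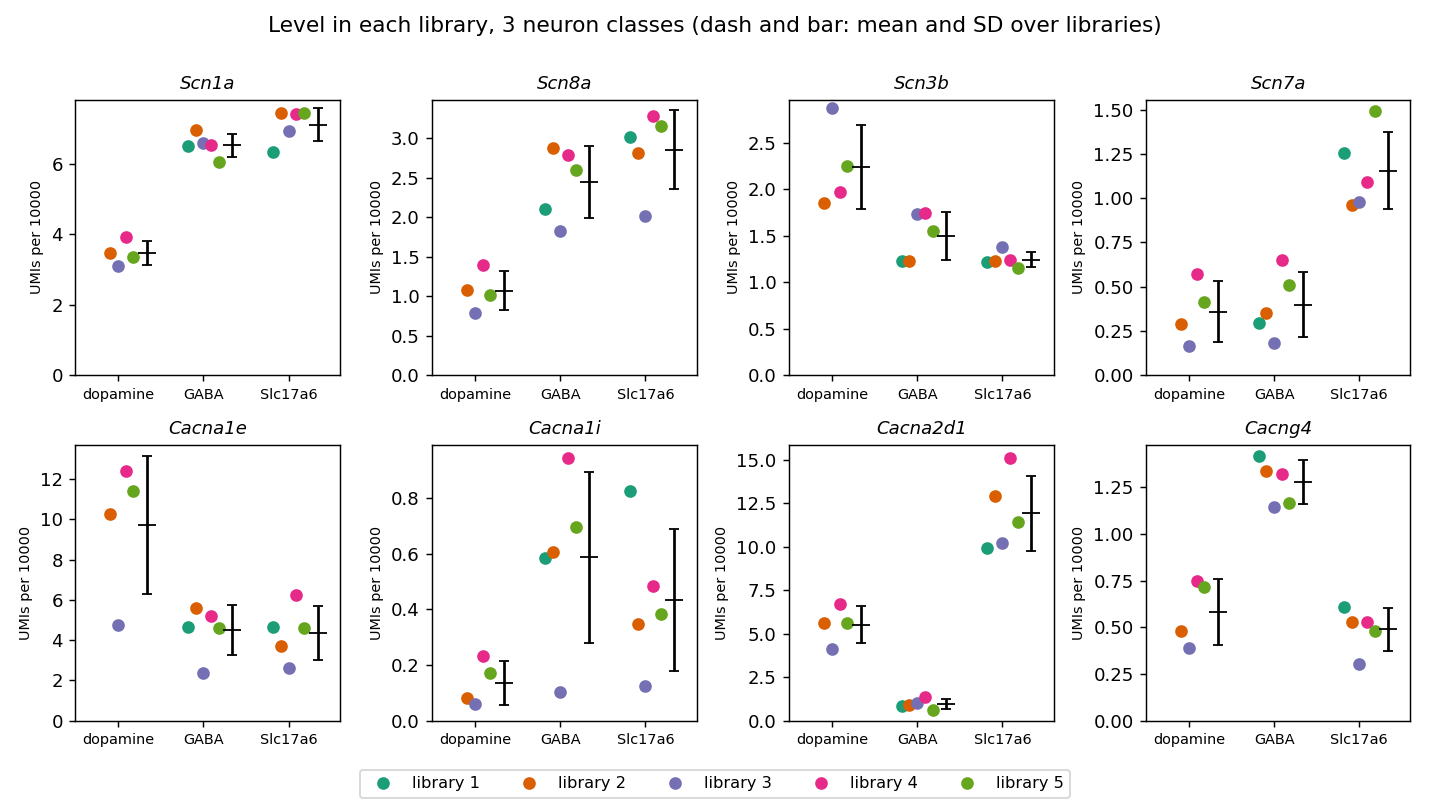
Level of 8 channel genes in each library (points, 1 colour per library) in dopamine, GABA and Slc17a6 neurons, in UMIs per 10000 UMIs of the class, with the mean and SD over libraries as a dash and bar; each panel has its own scale. Dopamine neurons are lowest for Scn1a, Scn8a and Cacna1i and highest for Scn3b and Cacna1e, Cacna2d1 runs from GABA (0.942) over dopamine (5.50) to Slc17a6 neurons (11.9), and Cacng4 is highest in GABA neurons (1.28).

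All 3 pore genes of the P/Q-, N- and R-type group were higher in dopamine neurons in both comparisons. Cacna1e, the R-type gene, rose most, with 10.3, 4.73, 12.4 and 11.4 in dopamine, 4.65, 5.58, 2.37, 5.2 and 4.62 in GABA and 4.63, 3.68, 2.62, 6.23 and 4.59 in Slc17a6 neurons. Dopamine neurons were higher within each of the 4 rats, and the classes overlapped across rats only because the dopamine value of rat 3 fell among the others. The fit gave log2 1.13 ± 0.11 (adjusted p = 4.55e-07) and log2 1.23 ± 0.12 (adjusted p = 4.27e-07). Cacna1a, the P/Q-type gene of presynaptic release, read 10.7, 6.31, 9.91 and 8.74 in dopamine, 7.93, 7.49, 4.39, 7.3 and 7.08 in GABA and 10.2, 6.76, 4.17, 8.95 and 7.18 in Slc17a6 neurons, with the classes overlapping across rats. Its differences were log2 0.49 ± 0.10 (adjusted p = 0.00107) and log2 0.45 ± 0.10 (adjusted p = 0.00444). The first call was lost without the block (0.43), and the second without the block (0.35) and without rat 2 or 3 (0.35 and 0.37). Cacna1b, the N-type gene, measured 5.74, 3.31, 6.98 and 6.24 in dopamine, 3.33, 4.16, 2.21, 4.72 and 4.88 in GABA and 4.92, 4.95, 2.36, 5.71 and 4.7 in Slc17a6 neurons. It was higher in 4 of 4 rats in both comparisons (log2 0.53 ± 0.09, adjusted p = 0.00027 and log2 0.36 ± 0.09, adjusted p = 0.0113). The first call was lost without the block (0.56) and with own markers (0.31), and the second without the block (0.38), with own markers (0.30), with thinning (0.38) and without rat 3 or 5 (0.30 and 0.33). The OPC marker list was also higher in dopamine neurons, at 6.82 summed over its 4 genes (6.08 to 7.23 over libraries), than in GABA (2.27, 1.91 to 2.86) and Slc17a6 neurons (1.78, 1.08 to 2.26). Ptprz1 made 6.53 of the sum, and the defining OPC marker Pdgfra stood at 0.0676 in dopamine neurons against 8.36 in OPCs. The part of these values in the results was not tested.

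Of the 2 L-type and 3 T-type genes tested, Cacna1d was called higher and Cacna1i lower in dopamine neurons in both comparisons. Cacna1d, the gene of the L-type channel that opens nearest to rest, was 7.12, 3.62, 6.55 and 6.0 in dopamine, 5.14, 4.94, 2.93, 6.02 and 5.5 in GABA and 6.75, 4.59, 2.51, 5.72 and 5.11 in Slc17a6 neurons. The classes overlapped across rats, though dopamine was higher in 4 of 4 rats each time (log2 0.33 ± 0.11, adjusted p = 0.0309 and log2 0.41 ± 0.11, adjusted p = 0.0133). Against GABA neurons the call was lost without the block (0.28), with own markers (0.01), with thinning (0.25), with free RNA subtracted (0.31) and without rat 2, 3 or 5 (0.24 to 0.37). Against Slc17a6 neurons it was lost without the block (0.33), with own markers (0.36), with thinning (0.36) and without rat 2 or 3 (0.30 and 0.35). Cacna1c, the more widespread L-type gene, had means of 1.95 ± 0.864, 1.95 ± 0.682 and 2.11 ± 1.02 and was not called. Of the T-type genes, Cacna1i was lower in dopamine neurons, where it read 0.0812, 0.0596, 0.232 and 0.17 against 0.587, 0.608, 0.101, 0.947 and 0.696 in GABA and 0.825, 0.347, 0.126, 0.485 and 0.383 in Slc17a6 neurons. It was lower in every rat, and the classes overlapped across rats only through rat 3, in which all were low (log2 -2.19 ± 0.21, adjusted p = 3.24e-07 and log2 -1.42 ± 0.25, adjusted p = 0.00041). The first was smaller with own markers (-1.42) and still called. The second call was lost without the block (-1.52) and with thinning (-0.80). Cacna1i was also called higher in GABA than in Slc17a6 neurons (log2 0.77 ± 0.18, adjusted p = 0.00841), but in 3 of 5 rats, and that call was lost without the block (0.54), with own markers (0.33), by DESeq2 (0.61) and without rat 4 or 5 (0.62 and 0.73). Cacna1g, with means of 1.02 ± 0.293, 0.99 ± 0.261 and 1.03 ± 0.542, and Cacna1h, with 0.474 ± 0.188, 0.359 ± 0.165 and 0.359 ± 0.195, were not called.

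Of the 4 alpha2delta genes, Cacna2d1 and Cacna2d2 were called among the neuron classes and Cacna2d3 and Cacna2d4 were not. Cacna2d1, the main gabapentin-binding subunit, read 0.832, 0.868, 1.03, 1.37 and 0.608 in GABA neurons, 5.59, 4.11, 6.7 and 5.58 in dopamine neurons and 9.94, 12.9, 10.2, 15.1 and 11.4 in Slc17a6 neurons. The 3 ranges did not touch. Dopamine neurons were higher than GABA neurons by log2 2.56 ± 0.14 (adjusted p = 3.22e-10) and against Slc17a6 neurons gave log2 -1.10 ± 0.13 (adjusted p = 9.17e-06), while GABA against Slc17a6 neurons gave log2 -3.66 ± 0.14 (adjusted p = 1.25e-11). With own markers the difference between dopamine and GABA neurons was 3.80 and that between GABA and Slc17a6 neurons -4.74, both still called. Shares of nuclei followed the same order: at least 1 UMI was found in 19.0% of GABA, 75.5% of dopamine and 90.4% of Slc17a6 nuclei, and in 6.10%, 36.8% and 64.4% after thinning to 1000 UMIs, beside 7.65% and 2.65% of oligodendrocytes. Cacna2d2, the other gabapentin-binding subunit, was lower in dopamine neurons, at 0.886, 0.402, 1.15 and 0.885, than in GABA neurons, at 1.61, 1.82, 0.963, 2.09 and 1.68, by log2 -0.95 ± 0.17 (adjusted p = 0.000392), in 4 of 4 rats with ranges that overlapped across rats, and the call was lost without the block (-0.94). Slc17a6 neurons stood at 1.87, 2.2, 0.93, 1.1 and 1.34, and that comparison (log2 -0.70 ± 0.18, adjusted p = 0.0119) had 1 of 4 rats the other way and was lost without the block (-0.75), with own markers (-0.25) and without rat 2 or 3 (-0.41 and -0.67). Cacna2d3 had similar means in all 3 classes, 7.88 ± 1.56, 7.93 ± 2.34 and 9.97 ± 3.68, and was not called, but it varied widely within GABA neurons. Over 14 GABA sub-clusters of at least 50 nuclei its level ran from 0.112 to 27.0, over the 5 Slc17a6 sub-clusters from 2.83 to 24.1, and over the 4 dopamine sub-clusters from 4.55 to 10.98.

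Cacna2d1 is shown because its 3 neuron classes did not overlap (chr4:20330148-20330397, minus strand, before the outermost of 3 starts listed, which lies 140 bases inside the gene span).
Cacna2d1: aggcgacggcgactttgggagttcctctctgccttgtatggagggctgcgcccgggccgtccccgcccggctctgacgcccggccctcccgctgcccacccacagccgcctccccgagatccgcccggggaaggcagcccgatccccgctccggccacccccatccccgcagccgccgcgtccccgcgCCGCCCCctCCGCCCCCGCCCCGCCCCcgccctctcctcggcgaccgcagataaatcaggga
Its promoter held 4 GC boxes, beginning 62, 53, 47 and 42 bases before that start, so that the 3 nearest the start overlap, and was 77.2% G or C.

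Of the 4 calcium channel beta genes, 3 were called against GABA neurons and 1 against Slc17a6 neurons. Cacnb4, mutated in a mouse with ataxia and seizures, was higher in dopamine neurons in 4 of 4 rats in both comparisons (log2 0.38 ± 0.09, adjusted p = 0.00304 and log2 0.35 ± 0.09, adjusted p = 0.0112), with means of 3.63 ± 0.891, 2.72 ± 0.726 and 2.91 ± 0.562. The first of these calls was lost without the block (0.45), with own markers (0.20) and with thinning (0.18). The second was lost without the block (0.42), with own markers (0.38), with thinning (0.16) and without rat 2, 3 or 4 (0.31 to 0.33). Cacnb2, the most abundant beta gene by raw level, was called higher (log2 0.37 ± 0.13, adjusted p = 0.041) and Cacnb1 lower (log2 -0.58 ± 0.19, adjusted p = 0.0295) in dopamine than in GABA neurons. The call of Cacnb2 was lost without the block (0.42), with thinning (0.32), with free RNA subtracted (0.35), by DESeq2 (0.39) and without rat 1, 2, 3 or 5 (0.32 to 0.37). That of Cacnb1 was lost without the block (-0.67), with own markers (-0.84), with the 2000 UMI minimum (-0.55), by DESeq2 (-0.59) and without rat 3, 4 or 5 (-0.64 to -0.44). Cacnb3 was not called.

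Of the 5 gamma genes tested, 2 were called between GABA neurons and another class, Cacng4 and Cacng3, and 3 were not. Cacng4, a TARP, was 1.42, 1.34, 1.15, 1.32 and 1.17 in GABA neurons, 0.48, 0.388, 0.745 and 0.715 in dopamine neurons and 0.61, 0.531, 0.302, 0.527 and 0.479 in Slc17a6 neurons. GABA neurons lay above every library of the others, with log2 -1.08 ± 0.13 (adjusted p = 5.36e-06) for dopamine against GABA and log2 1.42 ± 0.14 (adjusted p = 1.20e-06) for GABA against Slc17a6 neurons. Cacng3, another TARP, was lower in GABA neurons, at 1.76, 1.01, 0.416, 0.959 and 1.19, than in dopamine, at 1.58, 0.82, 2.27 and 1.81, or Slc17a6 neurons, at 1.76, 1.79, 1.48, 2.43 and 3.01. The classes overlapped across rats because rat 1, with 21 GABA nuclei, was high among GABA libraries and rat 3 low among dopamine libraries. The differences were log2 0.79 ± 0.16 (adjusted p = 0.000981) for dopamine against GABA, in 4 of 4 rats, and log2 -1.07 ± 0.15 (adjusted p = 0.000111) for GABA against Slc17a6 neurons, with 1 of 5 rats the other way. The first call was lost without the block (0.69) and with own markers (0.59). The second was lost without the block (-0.99) and with own markers (-0.01). Cacng2 (stargazin), Cacng7 and Cacng8 were not called in these comparisons, with means in the 3 classes of 0.767 to 1.42. In all, GABA against Slc17a6 neurons called 6 of 32 members, 2 higher and 4 lower in GABA neurons, beside 9.97% of all genes (5.12% and 4.85%), with a median log2 fold change of 0.02 over members and 0.01 over all genes.

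The promoter of Cacng3 is shown because it alone of the 27 promoters matched held the left part of the REST element, in capitals with its 1 GC box (chr1:186632312-186632561, plus strand, with the start 228 bases inside the gene span).
Cacng3: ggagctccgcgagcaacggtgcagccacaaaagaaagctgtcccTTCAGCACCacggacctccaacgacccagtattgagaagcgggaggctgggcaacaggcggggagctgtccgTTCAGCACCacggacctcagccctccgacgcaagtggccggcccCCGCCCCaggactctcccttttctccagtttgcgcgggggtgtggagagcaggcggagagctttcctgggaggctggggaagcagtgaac
It held TTCAGCACC, that left part, at 2 places, beginning 206 and 134 bases before the start, and 0.305% of all promoters hold these letters at least once. Neither the NR4A element AAAGGTCA (1.24% of all promoters) nor the cyclic AMP element TGACGTCA (1.59%) was found in the 27 windows, which says only that these letters are not in them.

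**Figure D3:**
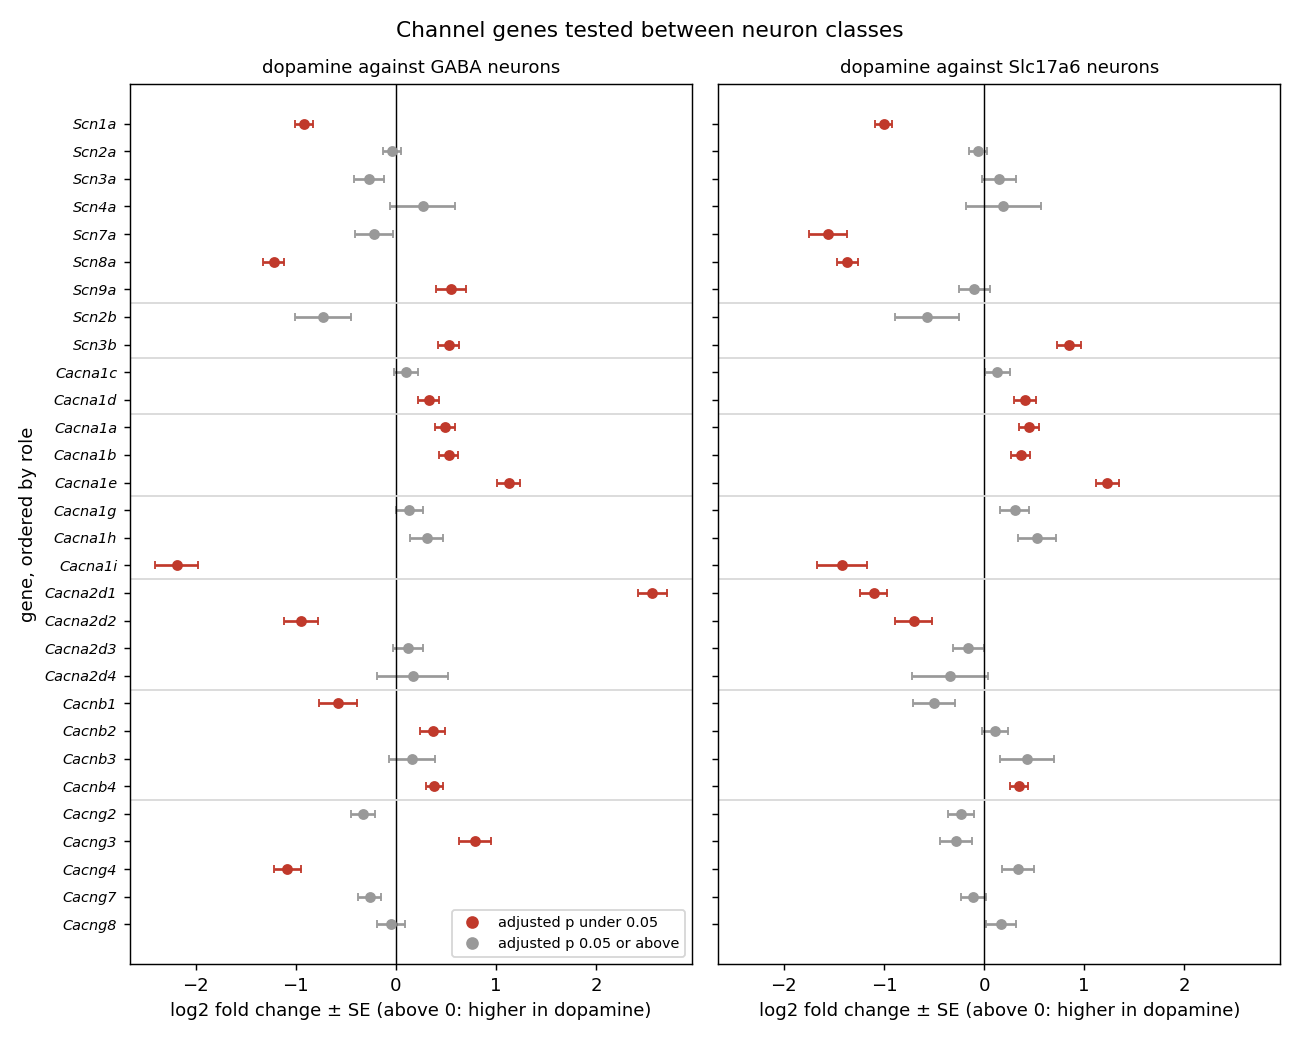
Log2 fold change with its SE (edgeR) for 30 of the 32 members tested, ordered by role, in dopamine neurons against GABA neurons (left) and against Slc17a6 neurons (right); red points have an adjusted p under 0.05. Cacna2d1 is far to the right against GABA neurons (2.56) and left of 0 against Slc17a6 neurons (-1.10), while Scn1a, Scn8a and Cacna1i are left of 0 and Cacna1e right of 0 in both panels.

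The dopamine counts fell to 7 and 7 without the rat as a block, and to 9 and 9 when each nucleus was typed by its own markers, with 7.70% and 5.29%, and 11.03% and 6.57%, of all genes called. Against Slc17a6 neurons the count was 9 of 26 after thinning each nucleus to 1000 UMIs (11.6% of all genes), 9 of 31 without rat 2 (12.8%) and 8 of 32 without rat 3 (13.2%). GABA against Slc17a6 neurons gave 3 of 32 without the block (2.39%).

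Within the classes, sub-clusters give a description without a test, since the sub-clusters were made from these counts. Scn1a ran from 3.26 to 3.99 over the 4 dopamine sub-clusters, from 4.90 to 9.47 over 14 GABA and from 5.09 to 8.99 over 5 Slc17a6 sub-clusters. Scn8a ran from 0.911 to 1.59, from 1.69 to 3.67 and from 2.30 to 3.73, so no dopamine sub-cluster reached the others for either gene. Over the 23 sub-clusters Scn1a had a Spearman rho of 0.68 with Scn8a, as a description of groups that share libraries. Cacna1e ran from 8.91 to 13.8 over dopamine sub-clusters and from 2.07 to 10.6 over GABA sub-clusters, which overlapped. Dopamine and GABA sub-clusters also overlapped for Scn3b (1.64 to 2.55 and 0.822 to 2.90), Cacna1i (0.0104 to 0.341 and 0.0220 to 1.62) and Cacng4 (0.434 to 0.848 and 0.579 to 3.15). For Scn7a, Slc17a6 sub-clusters (0.508 to 1.52) overlapped with dopamine (0.223 to 0.616) and GABA sub-clusters (0.110 to 0.922). Cacna2d1 kept apart, with 4.58 to 6.64 in dopamine, 0.0293 to 3.95 in GABA and 7.62 to 16.3 in Slc17a6 sub-clusters.

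The second comparison set all neurons, including the 1794 in none of the 3 named classes and the 2 mixed sub-clusters among them, against 4 classes of glia. Oligodendrocytes and microglia had little RNA of nearly every channel gene, whereas OPCs carried many of them and astrocytes a few. Of 30 members tested, 29 were called against oligodendrocytes, all higher in neurons, where 70.9% of all genes were called, 35.4% higher and 35.5% lower in neurons. Against microglia 28 were called, all higher in neurons (54.7% of all genes, 30.3% higher and 24.4% lower). Against astrocytes 27 were higher and 2 lower (56.4% of all genes, 29.5% and 26.9%), and against OPCs 25 were higher and 1 lower (47.1% of all genes, 26.6% and 20.5%). The median log2 fold change over members was 4.29, 4.30, 2.86 and 1.34 against oligodendrocytes, microglia, astrocytes and OPCs, beside -0.03, 0.09, 0.03 and 0.06 over all genes. Without the mixed sub-clusters 29, 28, 29 and 26 members were called, beside 8409, 6546, 6740 and 5691 of 11796 genes. The medians over members were then 4.31, 4.31, 2.87 and 1.36. Free RNA was estimated to give 6.78 to 26.3% of the UMIs of oligodendrocytes. With it subtracted, 29 of 29, 29 of 29, 25 of 29 and 22 of 29 members were called against the same classes. Beside them, 7307, 6290, 5544 and 4573 of 11641 genes were called. The median over members was 8.10, 8.80, 3.50 and 1.55, beside 0.25, 0.49, 0.14 and 0.17 over all genes. The subtraction left no counts where the estimate exceeded those of a gene in a class and library. The sizes of these medians and folds are therefore not measured differences. Among the called members reported here, the fold moved by more than 1.5 times for 25 of 27 members against oligodendrocytes and 25 of 26 against microglia, each time to a larger value, and for 15 of 26 against astrocytes and 8 of 23 against OPCs. Every one of those 27 and 26 calls against oligodendrocytes and microglia was still made with the subtraction, while Scn2b, called against oligodendrocytes, was not tested there. The sizes of the folds given below for glia are those without the subtraction and depend on it. Low UMI counts limit all microglial values, and so the sizes of folds against microglia.

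Sodium channel alpha genes split by class of glia. Scn8a had 3.21, 2.56, 1.59, 2.86 and 2.41 in neurons and 2.63, 1.8, 1.81, 2.42 and 2.5 in OPCs, which overlapped and were not called different (0.24 ± 0.14), and 0.0891, 0.0768, 0, 0.0964 and 0.0638 in oligodendrocytes. Neurons exceeded oligodendrocytes by log2 4.83 ± 0.18 (adjusted p = 1.05e-20), and OPCs exceeded them by log2 4.59 ± 0.18 (adjusted p = 1.64e-19). Microglia had 0.194, 0.136, 0 and 0.058, against which neurons were higher by log2 5.10 ± 0.33 (adjusted p = 1.46e-14) and, without rat 2, by 5.81, and astrocytes had a mean of 0.849 ± 0.135. The microglial values rest on few UMIs. Scn1a measured 6.84, 6.28, 5.4, 6.66 and 5.77 in neurons, 2.7, 2.24, 1.68, 2.63 and 1.81 in OPCs, 0.446, 0.322, 0.311, 0.303 and 0.197 in oligodendrocytes and 0.663, 0.534, 0.656 and 0.572 in astrocytes. None of these ranges overlapped between neurons, OPCs and the other glia, with log2 3.41 ± 0.17 (adjusted p = 3.35e-17) for neurons against astrocytes and log2 2.64 ± 0.15 (adjusted p = 1.26e-15) for OPCs against oligodendrocytes. Scn2a was likewise between the levels of neurons and oligodendrocytes in OPCs, at 2.15 ± 0.253 against 5.92 ± 0.602 and 0.711 ± 0.148.

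By contrast Scn9a and Scn7a were low in these glia. Scn9a read 1.98, 2.11, 1.65, 4.13 and 5.45 in neurons against 0.0408, 0.0768, 0.104, 0.0687 and 0.105 in oligodendrocytes, 0, 0.115, 0.129, 0.0479 and 0.0521 in OPCs and 0.0974, 0.098, 0.112 and 0.162 in astrocytes. Neurons were higher by log2 5.20 ± 0.20 (adjusted p = 5.44e-20), log2 5.57 ± 0.27 (adjusted p = 5.25e-17) and log2 4.79 ± 0.26 (adjusted p = 2.20e-16). The second value rests on 26 UMIs in OPCs and was 6.49 without rat 2. Scn7a read 0.649, 0.444, 0.259, 0.698 and 0.643 in neurons, 0.0186, 0.0143, 0, 0.0105 and 0.0131 in oligodendrocytes, 0, 0.0359, 0, 0.0287 and 0 in OPCs and 0, 0.0272, 0 and 0.0249 in astrocytes. Neurons were higher than oligodendrocytes, in which 37 UMIs were counted, by log2 5.21 ± 0.24 (adjusted p = 2.01e-18). Only 8 UMIs of Scn7a were counted in OPCs, 7 in astrocytes and 1 in microglia, with libraries at 0 in each, and no fold is given for them. Among beta subunits, Scn3b was higher in neurons than in each glial class.

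Pore genes of the P/Q-, N- and R-type group were high in neurons, intermediate in OPCs and low in oligodendrocytes. Cacna1e measured 5.34, 6.17, 2.79, 6.73 and 6.18 in neurons, 4.14, 3.66, 2.07, 5.67 and 4.83 in OPCs, 0.111, 0.132, 0.104, 0.0964 and 0.0751 in oligodendrocytes and 0.388, 0.408, 0.0359 and 0.116 in microglia. OPCs overlapped with neurons and lay above every oligodendrocyte library. The differences were log2 5.64 ± 0.23 (adjusted p = 7.91e-20) for neurons against oligodendrocytes, log2 4.91 ± 0.32 (adjusted p = 2.24e-14) against microglia (5.73 without rat 2) and log2 5.21 ± 0.23 (adjusted p = 1.74e-18) for OPCs against oligodendrocytes. Neurons against OPCs gave log2 0.44 ± 0.18 (adjusted p = 0.0413), a call lost without the block (0.41), with own markers (0.17), with free RNA subtracted (0.41), with the 2000 UMI minimum (0.38), by DESeq2 (0.42), with free RNA-like clusters kept (0.19) and without rat 1, 2, 3 or 5 (0.33 to 0.48). Astrocytes also carried Cacna1e, at 3.43, 4.84, 3.02 and 3.0, and neurons exceeded them by log2 0.76 ± 0.19 (adjusted p = 0.000983), a call lost without the block (0.59), with own markers (0.50), with free RNA subtracted (0.70) and with free RNA-like clusters kept (0.48). Cacna1a was 8.58, 7.97, 4.48, 8.23 and 7.24 in neurons, 4.17, 2.87, 1.17, 3.93 and 2.94 in OPCs, 0.149, 0.225, 0.0346, 0.18 and 0.146 in oligodendrocytes and 0.388, 0.163, 0.215 and 0.348 in microglia, with log2 5.29 ± 0.23 (adjusted p = 5.15e-19), log2 5.24 ± 0.34 (adjusted p = 1.76e-14) and, for OPCs against oligodendrocytes, log2 3.97 ± 0.23 (adjusted p = 1.12e-15). Cacna1b was 4.79, 4.67, 2.52, 5.49 and 5.27 in neurons, 0.136, 0.207, 0.225 and 0.137 in astrocytes and 0.0969, 0.191, 0.108 and 0.058 in microglia, by log2 4.77 ± 0.19 (adjusted p = 4.49e-19) and log2 5.46 ± 0.27 (adjusted p = 2.01e-17).

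Other calls of neurons against glia depended on the fit. Against OPCs, that of Scn3a was lost without the block (0.50), with own markers (0.10), with free RNA subtracted (0.57) and without rat 1, 2 or 4 (0.44 to 0.51). That of Cacng8 was lost without the block (0.61), with own markers (0.25), by DESeq2 (0.72) and with free RNA-like clusters kept (0.44). Those of Cacna2d3 and Cacna1d were lost with own markers (0.92) and with free RNA subtracted (0.86), respectively. Without the block the calls of Cacnb3 (1.04) and Scn2b (1.14) against OPCs and of both (1.04 and 0.83) against astrocytes were lost, the last also without rat 1 (0.76). Against microglia, Cacnb1 was lost with own markers (2.60).

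Both L-type genes tested were higher in neurons than in each glial class. Cacna1d was found in OPCs (3.35, 3.25, 1.42, 2.61 and 3.24) and astrocytes (2.67, 2.04, 2.49 and 2.14) above every oligodendrocyte library (0.271, 0.195, 0.173, 0.227 and 0.193), while neurons had 6.28, 5.26, 2.73, 5.91 and 5.4. Microglia had 0.194, 0.191, 0.179 and 0.058, with log2 5.27 ± 0.24 (adjusted p = 5.74e-18) for neurons against them and log2 3.55 ± 0.15 (adjusted p = 5.71e-19) for OPCs against oligodendrocytes. Cacna1c was in OPCs (1.01, 0.869, 0.388, 0.786 and 0.781), while astrocytes (0.0585, 0.049, 0 and 0.0373) overlapped with oligodendrocytes (0.0334, 0.0583, 0.0346, 0.0496 and 0.0282) and microglia (0.0969, 0.0272, 0.0718 and 0.058). Neurons had 2.74, 2.18, 0.742, 2.34 and 2.07, more than oligodendrocytes by log2 5.39 ± 0.17 (adjusted p = 2.11e-21), astrocytes by log2 5.79 ± 0.25 (adjusted p = 2.44e-18) and microglia by log2 5.55 ± 0.34 (adjusted p = 7.01e-15), and OPCs exceeded oligodendrocytes by log2 3.97 ± 0.19 (adjusted p = 1.54e-17). The microglial values of Cacna1c rest on few UMIs. Its fold against microglia was 4.22 with own markers and 6.32 with a minimum of 2000 UMIs.

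All 3 T-type genes were higher in neurons than in each glial class. Cacna1g read 1.54, 1.02, 0.476, 1.1 and 1.04 in neurons, 0.0225, 0.0503, 0, 0.0766 and 0.0781 in OPCs and 0.0585, 0.0381, 0.0187 and 0.0249 in astrocytes (log2 4.20 ± 0.25, adjusted p = 5.50e-15 and log2 4.95 ± 0.29, adjusted p = 1.13e-15). Cacna1i read 0.766, 0.433, 0.102, 0.601 and 0.547 in neurons, 0.00371, 0.00819, 0, 0.00859 and 0.00563 in oligodendrocytes, 0.0225, 0.101, 0, 0.0575 and 0.104 in OPCs and 0.039, 0.0436, 0.0562 and 0.0249 in astrocytes. It was higher in neurons by log2 5.91 ± 0.24 (adjusted p = 1.63e-19), log2 2.79 ± 0.25 (adjusted p = 8.28e-11) and log2 3.69 ± 0.30 (adjusted p = 3.07e-12), and 1 UMI of it was counted in microglia. Cacna1h was 0.407, 0.413, 0.128, 0.534 and 0.451 in neurons and 0.0901, 0.0575, 0, 0.0575 and 0.13 in OPCs (log2 2.55 ± 0.28, adjusted p = 4.96e-09).

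Among alpha2delta genes, 1 was higher in a glial class than in neurons. Cacna2d3 was higher in astrocytes than in neurons, at 19.4, 9.94, 20.4 and 10.8 against 8.74, 7.51, 5.04, 9.38 and 9.45. Each astrocyte library was above every neuron library, and neurons against astrocytes gave log2 -0.76 ± 0.16 (adjusted p = 0.000138). With free RNA subtracted the fold change was -0.86 and with nuclei classed one by one on their markers -0.82, and neither was called. OPCs had 4.19, 3.07, 2.33, 4.46 and 4.31, oligodendrocytes 0.149, 0.149, 0.173, 0.147 and 0.135 and microglia 0.194, 0.109, 0.215 and 0.116. Neurons exceeded oligodendrocytes by log2 5.63 ± 0.19 (adjusted p = 3.12e-21) and microglia by log2 5.98 ± 0.29 (adjusted p = 1.55e-17), and OPCs exceeded oligodendrocytes by log2 4.46 ± 0.19 (adjusted p = 6.82e-19). At least 1 UMI of Cacna2d3 was found in 81.2% of astrocytes and 54.4% of neurons, and in 58.3% and 34.6% after thinning to 1000 UMIs, beside 4.55% and 1.55% of oligodendrocytes. Cacna2d1 was low in glia, at 7.8, 4.55, 4.26, 7.33 and 3.97 in neurons, 0.428, 0.51, 0, 0.469 and 0.234 in OPCs, 0.214, 0.207, 0.169 and 0.137 in astrocytes and 0.485, 0.408, 0.108 and 0.116 in microglia (log2 3.82 ± 0.20, adjusted p = 3.45e-16, log2 4.91 ± 0.24, adjusted p = 2.17e-17 and log2 4.58 ± 0.29, adjusted p = 8.76e-15, the last 5.22 without rat 2). Cacna2d2 was 1.59, 1.57, 0.661, 1.51 and 1.4 in neurons and 0.117, 0.0708, 0.0937 and 0.0249 in astrocytes (log2 4.36 ± 0.28, adjusted p = 1.72e-14). Cacnb2 was 6.22, 6.41, 7.03, 7.55 and 6.3 in neurons, 0.13, 0.144, 0.104, 0.119 and 0.092 in oligodendrocytes and 2.99, 2.18, 2.59, 2.79 and 2.89 in OPCs (log2 5.57 ± 0.21, adjusted p = 1.54e-20 and, for OPCs against oligodendrocytes, log2 4.22 ± 0.21, adjusted p = 2.28e-17). Cacnb4 was called in neither direction between neurons and OPCs, whose means were 2.95 ± 0.523 and 2.71 ± 0.566.

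**Figure D4:**
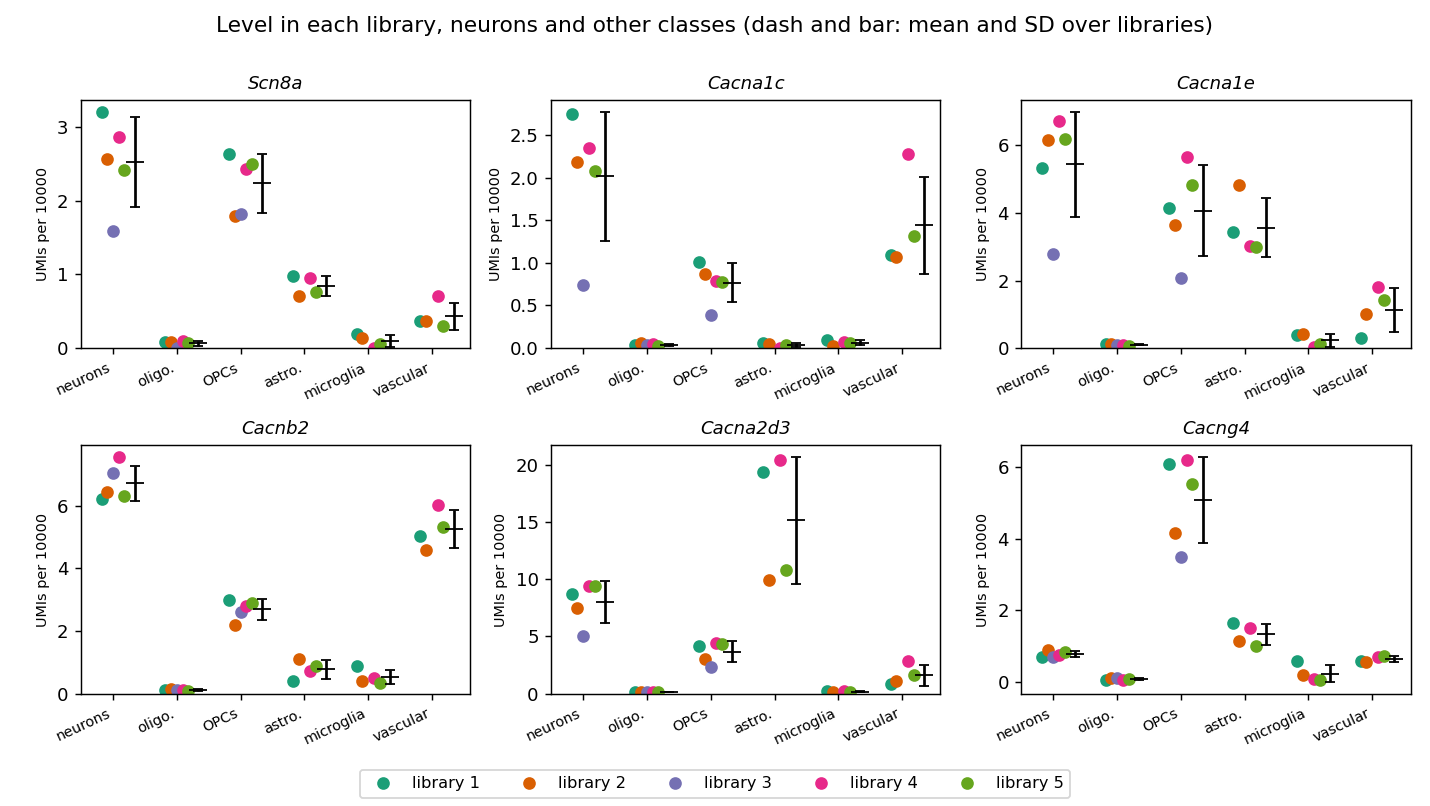
Level of 6 channel genes in each library (points, 1 colour per library) in neurons, oligodendrocytes, OPCs, astrocytes, microglia and vascular nuclei, in UMIs per 10000 UMIs of the class, with the mean and SD over libraries as a dash and bar; each panel has its own scale. Cacng4 is highest in OPCs (5.09), Cacna2d3 in astrocytes (15.1), Scn8a overlaps between neurons (2.53) and OPCs (2.23), and Cacnb2 is high in neurons (6.70) and vascular nuclei (5.24).

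Of the 30 members tested, 1 was called higher in OPCs than in neurons, the gamma gene Cacng4, in every fit made. Its level was 6.08, 4.16, 3.5, 6.19 and 5.54 in OPCs, 0.698, 0.888, 0.703, 0.757 and 0.831 in neurons and 0.0371, 0.117, 0.104, 0.0449 and 0.0826 in oligodendrocytes, and every OPC library lay above all others. Neurons against OPCs gave log2 -2.66 ± 0.21 (adjusted p = 2.83e-12), and OPCs against oligodendrocytes log2 5.89 ± 0.26 (adjusted p = 1.91e-18). A UMI was found in 72.6% of OPCs, with a median of 3564 UMIs, and in 2.41% of oligodendrocytes, with a median of 2873, and in 39.9% and 0.811% after thinning. Astrocytes had 1.66, 1.13, 1.5 and 1.01, and neurons against them gave log2 -0.65 ± 0.23 (adjusted p = 0.0164), a call lost without rat 1 (-0.48), with free RNA subtracted (-0.74) and without the rat as a block (-0.76). Cacng3 went the other way, with 1.76, 1.35, 0.735, 1.7 and 1.58 in neurons, 0.135, 0.115, 0, 0.0479 and 0.0521 in OPCs and 0.039, 0.0926, 0.0562 and 0.124 in astrocytes (log2 4.22 ± 0.25, adjusted p = 5.77e-15 and log2 4.17 ± 0.26, adjusted p = 6.41e-15). Cacng2 was 1.88, 1.28, 0.617, 1.56 and 1.45 in neurons and 0.225, 0.172, 0.259, 0.0575 and 0.0651 in OPCs (log2 3.55 ± 0.26, adjusted p = 5.41e-13). Cacng8 was 0.795, 0.958, 0.397, 1.13 and 1.03 in neurons, 0.0223, 0.0328, 0, 0.0153 and 0.015 in oligodendrocytes and 0.405, 0.503, 0.259, 0.68 and 0.807 in OPCs (log2 5.27 ± 0.25, adjusted p = 2.49e-18 and, for OPCs against oligodendrocytes, log2 4.56 ± 0.28, adjusted p = 6.13e-15). Cacng7 was not called between neurons (0.888 ± 0.172) and OPCs (1.07 ± 0.219) in the fit given here, but it was called lower in neurons with own markers (-0.56), with a minimum of 2000 UMIs (-0.33), with free RNA-like clusters kept (-0.52) and without rat 3 (-0.34).

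OPCs are the cells from which oligodendrocytes arise, and the comparison between them covers the loss of channels known to accompany that step. Of 30 members, 21 were higher in OPCs and 0 were lower by the edgeR test, beside 47.7% of all genes (22.7% higher and 25% lower), with a median log2 fold change of 1.92 against -0.12. At an unadjusted p under 0.05, 22 members differed. The 5 neuron markers summed to 9.92 in OPCs (5.83 to 12.9 over libraries) and 3.71 in oligodendrocytes (2.62 to 5.95), beside 47.6 in all neurons. The 3 GABA markers summed to 3.41 in OPCs and 0.838 in oligodendrocytes. The part of these marker values in the results was not tested. With free RNA subtracted 24 of 29 were called, all higher in OPCs, beside 5318 of 11641 genes. The median over members was 5.04, beside 0.06 over all genes, with larger folds for all 20 of the called members reported here. The limit given above on the sizes of folds after this subtraction holds here too. With DESeq2 the share of all calls that were higher in OPCs was 58.5%, against 47.6% here. Among the members not called were Scn2b, Scn7a, Scn9a, Cacna1g, Cacna2d1, Cacnb3, Cacng2 and Cacng3.

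The size of several folds against glia also depended on how nuclei were classed and on depth, each still being called. With own markers, neurons against oligodendrocytes gave smaller folds for Cacna1i (5.03), Cacna1e (4.81), Cacna1a (4.58), Scn9a (4.58), Cacna2d3 (4.51), Cacnb2 (4.50) and Scn8a (4.24). Against microglia the folds were larger for Cacna1b (6.91), Cacna2d1 (6.12), Cacna1d (6.10) and Scn8a (6.09) and smaller for Cacna2d3 (4.97) and Cacna1c (4.22). Against astrocytes the fold was larger for Cacna1i (5.34) and smaller for Cacna1c (4.21), and against OPCs it was larger for Cacng2 (4.55). OPCs against oligodendrocytes gave 3.59 for Cacna2d3 and 3.47 for Cacnb2. With thinning, Cacng8 read 4.58 for neurons and 3.91 for OPCs against oligodendrocytes, Cacng3 5.99 against OPCs and Cacna2d2 3.74 against astrocytes. Against microglia, thinning gave 6.80 for Cacna2d3, 4.82 for Cacna1c and 3.89 for Scn8a, and a minimum of 2000 UMIs 6.32 for Cacna1c and 5.96 for Scn8a. With doublets kept, Cacna1c against microglia was 4.56.

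Vascular nuclei entered no test, since their group mixes several cell types. Their highest members were Cacnb2 (5.04, 4.58, 6.03 and 5.31 in rats 1, 2, 4 and 5), Cacna2d1 (0.657, 1.31, 3.21 and 1.88), Cacna2d3 (0.804, 1.1, 2.9 and 1.66) and Cacna1c (1.1, 1.07, 2.27 and 1.32), the L-type gene of smooth muscle. For Cacnb2 these values were above those of all glial classes in every library.

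Genes of proteins that work with these channels were read from 5 lists. Their values come from the first fit alone, and whether their calls hold in the repeated fits was not examined. Of 8 sodium channel partners, dopamine neurons had 2 higher and 4 lower than GABA neurons, and 1 higher and 4 lower than Slc17a6 neurons. For this and the lists that follow, the share of all genes called was 24.1% against GABA neurons (11.8% higher and 12.3% lower) and 16.5% against Slc17a6 neurons (8.25% and 8.28%). Fgf13, an intracellular factor that binds the sodium channel tail, was higher by log2 1.34 ± 0.15 (adjusted p = 1.37e-06) and log2 1.91 ± 0.16 (adjusted p = 1.20e-07). Its relatives Fgf14 (log2 -0.83 ± 0.11, adjusted p = 1.79e-05 and log2 -0.59 ± 0.12, adjusted p = 0.00128) and Fgf11 (log2 -2.40 ± 0.30, adjusted p = 5.93e-06 and log2 -2.59 ± 0.32, adjusted p = 1.01e-05) were lower, as was Ank3 (ankyrin-G, the anchor of the axon initial segment; log2 -0.48 ± 0.10, adjusted p = 0.000963 and log2 -0.49 ± 0.10, adjusted p = 0.00143). Of the NALCN leak channel list, 4 of 7 names were in the files, and Nalcn alone was called, lower in dopamine than in GABA neurons (log2 -0.35 ± 0.11, adjusted p = 0.0247).

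Of 14 genes for calcium release, pumps and exchangers tested, 2 were higher and 6 lower in dopamine than in GABA neurons, and 4 higher and 3 lower than in Slc17a6 neurons. The inositol trisphosphate receptor Itpr1 was higher (log2 1.20 ± 0.17, adjusted p = 3.96e-05 and log2 1.56 ± 0.19, adjusted p = 1.06e-05) and the ryanodine receptor Ryr2 lower (log2 -1.39 ± 0.11, adjusted p = 1.64e-08 and log2 -1.46 ± 0.11, adjusted p = 2.20e-08). Of 5 calcium binding protein genes, 3 were higher and 1 lower against GABA neurons, and 1 each way against Slc17a6 neurons: Calb1 (calbindin) was higher (log2 2.07 ± 0.16, adjusted p = 1.59e-08 and log2 1.63 ± 0.18, adjusted p = 2.29e-06) and Cabp1 lower (log2 -1.15 ± 0.17, adjusted p = 6.15e-05 and log2 -1.99 ± 0.18, adjusted p = 2.06e-07). Of 8 release site partners, 3 were higher and 3 lower, and 4 higher and 2 lower: Rimbp2 (log2 0.88 ± 0.12, adjusted p = 2.19e-05 and log2 1.48 ± 0.13, adjusted p = 2.54e-07) and Unc13b (log2 1.69 ± 0.12, adjusted p = 3.64e-09 and log2 0.82 ± 0.12, adjusted p = 5.56e-05) were higher, and Unc13c (log2 -1.48 ± 0.13, adjusted p = 1.41e-07 and log2 -1.98 ± 0.14, adjusted p = 1.05e-08) and Stac2 (log2 -3.63 ± 0.44, adjusted p = 5.20e-06 and log2 -3.67 ± 0.48, adjusted p = 2.06e-05) lower. GABA against Slc17a6 neurons called 1, 0, 4, 3 and 4 genes of these lists, beside 9.97% of all genes (5.12% higher and 4.85% lower). In GABA neurons 1, 0, 3, 0 and 2 of these were higher and 0, 0, 1, 3 and 2 lower. Ryr3 (log2 1.51 ± 0.13, adjusted p = 2.49e-07) and Stac (log2 2.48 ± 0.21, adjusted p = 2.49e-07) were higher, and the 3 calcium binding genes Cabp1, Vsnl1 and Calb2 were lower.

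Against glia most of these genes were higher in neurons, with exceptions among calcium release genes. Whether these calls hold with free RNA subtracted was not examined either. The shares of all genes called were 70.9% against oligodendrocytes (35.4% higher and 35.5% lower in neurons), 47.1% against OPCs (26.6% and 20.5%), 56.4% against astrocytes (29.5% and 26.9%) and 54.7% against microglia (30.3% and 24.4%). Of 12 calcium release genes tested, 10 were higher and 1 lower against oligodendrocytes, 8 and 3 against OPCs, 10 and 2 against astrocytes, and 8 and 3 against microglia. Itpr2, the inositol trisphosphate receptor best known from glia, was lower in neurons each time, by log2 -2.73 ± 0.19 (adjusted p = 2.38e-14), log2 -4.83 ± 0.19 (adjusted p = 9.59e-19), log2 -4.25 ± 0.20 (adjusted p = 1.15e-17) and log2 -4.34 ± 0.22 (adjusted p = 6.54e-17). Ryr3 was higher in OPCs than in neurons (log2 -1.04 ± 0.16, adjusted p = 2.25e-06) and than in oligodendrocytes (log2 6.80 ± 0.22, adjusted p = 3.16e-21). The 8 sodium channel partners split 6 and 2, 5 and 1, 6 and 0, and 8 and 0 in the same order, with Nfasc (neurofascin) lower in neurons than in oligodendrocytes (log2 -1.54 ± 0.18, adjusted p = 4.02e-09) and OPCs (log2 -1.43 ± 0.18, adjusted p = 8.00e-08). The 8 release site partners were higher in neurons in 7, 6, 8 and 8 cases and lower in none, by the same edgeR test, and the 6 calcium binding genes were higher in 5, 5, 5 and 4, with Pvalb lower in neurons than in oligodendrocytes (log2 -1.004 ± 0.25, adjusted p = 0.000832). The 3 genes tested of the NALCN list were higher in neurons in 3, 2, 3 and 3 cases. In OPCs against oligodendrocytes, where 47.7% of all genes were called, the lists gave 4 higher and 2 lower sodium channel partners, 3 and 0 of the NALCN list, 9 and 0 calcium release genes, 1 and 0 calcium binding genes and 5 and 0 release site partners.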

How the data were processed

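The authors deposited unfiltered UMI counts per gene and barcode for 5 libraries, made with Cell Ranger 8.0.1 per the labels, while the file headers name an older release. The genome build and annotation are not given in the sources used here. Barcodes were clustered with scanpy 1.11.5 (2000 variable genes, 10 principal components, Leiden resolution 1) without integration of libraries. Rat 3 made up 1292 of 1293, 434 of 435 and 199 of 199 barcodes in separate neuron clusters. Clusters were named from marker lists. Neurons were then clustered again with each library centred and scaled separately (30 principal components, Leiden resolution 2). The naming rules were set after the clusters had been seen. Raw counts were summed per rat and class (at least 10 nuclei) and tested with edgeR 4.0.16 (quasi-likelihood, TMM, genes with low counts removed by filterByExpr, the rat as a block), with p-values adjusted by the Benjamini-Hochberg method over all genes tested, 11335 among neuron classes and 11871 with glia. SE is the fold change over the root of F. The rat is a block because sums of the same number come from the same animal: deviations from class means correlated at 0.18 to 0.81 within a rat among neuron classes and 0.05 to 0.73 with glia.

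The members and all lists were chosen with earlier results of these data known. Up to 10 members per comparison were named, those past an adjusted p of 0.05 with the same sign in every rat, by size of change. Results of 2 members are not reported here. Other members were named by role, after their values were seen. Thinning drew 1000 UMIs per nucleus, and every nucleus kept had at least that many. Doublets were removed at 0.8% per 1000 barcodes. Alternatives were DESeq2 1.42.0, RLE scaling, no filter on low counts, no block, free RNA subtracted, nuclei typed by their own markers, thinning, a minimum of 2000 UMIs, doublets kept, each rat left out and, chosen after seeing the data, clusters that resembled free RNA counted as neurons and, in another fit, 2 mixed neuron sub-clusters left out. Depth ranged from 1610 to 6477 median UMIs per nucleus between libraries, so genes with few UMIs have wide counting error.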

Additional observations from a re-analysis of the deposited data

Results flagged for a closer look

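Of 102 groups of 4 or 5 libraries checked, 6 held a library far from the others by Dixon's test, and 3 of these were neurons of rat 3. Chance sets apart about 1 group in 20. In all neurons rat 3 was low for the N-type gene Cacna1b (2.52, others 4.67 to 5.49), the L-type gene Cacna1d (2.73, others 5.26 to 6.28) and Cacna2d2 (0.661, others 1.40 to 1.59), in UMIs per 10000 UMIs. In microglia rat 5 was low for Cacna1d (0.0580, others 0.179 to 0.194), and rat 4 for Cacna1i (0.0359) and rat 2 for Scn7a (0.0272) each held the 1 UMI counted, with the others at 0. The microglial values of Cacna1d rest on few UMIs too.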

How the results depend on the processing

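The 159 calls of the members reported here gave 2429 values under alternatives, of which 2320 were still called in the same direction and 109 kept the direction but were no longer called. Of the 109, 72 were among the 475 values of the neuron classes, where 14 of 34 calls held under every alternative run, and 37 among the 1954 values with glia, where 112 of 125 held. For the members named by size of change, 11 of 1055 values were no longer called. Without the rat as a block the members called were 7, 7 and 3 for dopamine against GABA, dopamine against Slc17a6 and GABA against Slc17a6 neurons, and with own markers 9 and 9 for both dopamine comparisons. Thinning gave 9 against Slc17a6 neurons, and leaving out each rat gave 8 to 16 there. Over all genes, calls fell without the block from 2730, 1874 and 1130 to 873, 600 and 271. They were 883, 526 and 172 with own markers and 1117, 717 and 491 with thinning, where fewer genes were tested. In the comparisons with glia, own markers gave 3493 against OPCs and 3892 (from 6490) against microglia, and thinning gave 4756, 2811, 3498, 3782 and 3070 (from 8415, 5591, 6693, 6490 and 5662) for neurons against oligodendrocytes, OPCs, astrocytes and microglia and for OPCs against oligodendrocytes. Leaving out rat 4 gave 744 for GABA against Slc17a6 neurons. Without the block, calls against OPCs fell from 5591 to 3336, and for OPCs against oligodendrocytes from 5662 to 3650. For neurons against oligodendrocytes, RLE scaling moved the median of all genes from -0.03 to 0.10, and for OPCs against oligodendrocytes from -0.12 to 0.02, with 29 and 21 members higher under both. DESeq2 raised the share of OPC calls that were higher from 47.6% to 58.5%. The cause of these changes was not tested. Low UMI counts limit Scn7a, Cacna1i and all microglial values.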
